A study of Mus musculus with 4 samples.

Results

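The MS4A genes encode a family of small membrane proteins, and 8 of them were followed here in mouse leukaemic cells: Ms4a1, Ms4a3, Ms4a4b, Ms4a4c, Ms4a6b, Ms4a6c, Ms4a6d and Ms4a7. They were chosen by name, with earlier results of these data known, so their counts of calls below are a description. All 8 were present in the deposited table, which holds 24497 mouse rows in all. The RNA came from leukaemic cells that express NRAS together with AE9a (a short form of the AML1-ETO fusion protein) in both groups. The cells of the Tet2 KO group were made from bone marrow stem cells of Tet2-/- mice, and those of the WT group from wild-type mice. Both had been grown in 50 ng/ml SCF with IL-3 and IL-6 (10 ng/ml), under selection with G418 and puromycin, and transplanted into CD45.1 recipients of 6 to 8 weeks of age that had received 900 cGy. CD45.2 cells were enriched from the spleen, and 2 libraries were made per group. The labels give neither the deleted Tet2 exons, nor the number of mice behind a group, nor how much host tissue the enrichment left.

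MS4A proteins cross the plasma membrane several times and have both ends in the cytoplasm, and several associate with larger receptors at the cell surface. Most members are restricted to blood cell types. CD20, the product of Ms4a1, marks B cells, Ms4a3 marks progenitors of granulocytes and monocytes, Ms4a4b is known from T cells, and Ms4a7 and the Ms4a6 genes are known from monocytes and macrophages. Ms4a4c is among the genes that interferon induces in mouse leukocytes.

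Values are TPM, the authors' length-normalised transcript abundance, which sums to the same total in each library. Estimated depth was 22.7 M and 23.5 M reads in the Tet2 KO libraries and 20.5 M and 18.7 M reads in WT. The WT libraries differed by little more than read sampling: the variance of their difference was 1.11 times that of sampling (robust estimate, 1970 genes), against 5.70 times between the Tet2 KO libraries (2095 genes). They were therefore averaged and counted as 1 sample, against 2 Tet2 KO samples. The spread behind the p-values thus comes from the Tet2 KO libraries alone, and limma pools it in part over all tested genes. Part of that spread can be technical, and variation among WT mice does not enter. ERCC spike-in RNAs took 2.95% and 3.19% of TPM in the Tet2 KO libraries, against 4.66% and 4.62% in WT. The Tet2 KO libraries also stood apart from each other in Xist, a transcript of female cells, at 86.1 and 28.2 TPM, against 0.34 TPM in each WT library. Xist thus separated the groups as well, so female cells and the Tet2 label went together here. The part of female cells, from donor or host, in the changes below was not tested. Whole-gene Tet2 RNA, higher in the Tet2 KO libraries, stood at 63.7 and 68.1 TPM, against 43.5 and 43.7 TPM in WT (log2 change 0.58 ± 0.19, limma adjusted p = 0.0171, lost without trend and robust estimation). A total over the whole gene does not check an exon deletion. All directions below rest on the labels. The leukocyte gene Ptprc was abundant in every library, at 413 and 396 TPM in Tet2 KO and 292 and 296 TPM in WT, as was the myeloid factor Spi1, at 650 and 508 TPM in Tet2 KO and 662 and 630 TPM in WT. Of the 7 leukocyte and myeloid identity genes, 4 were called higher and 1, the progenitor marker Cd34, lower. Over all tested genes 22.1% were called higher and 26.7% lower.

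Ms4a4c, Ms4a6b, Ms4a6c, Ms4a4b and Ms4a7 fell in Tet2 KO cells and Ms4a3 rose, while Ms4a6d did not pass the test and Ms4a1 was too low to be tested. A gene was tested if it reached 1 TPM in at least 2 libraries, and called at an adjusted p under 0.05 in limma. Thus 5 of 8 members were called lower, where 26.7% of the 11919 tested genes were, and 1 was called higher, where 22.1% were. Scaled to the ERCC spike-ins, 4 members were called lower, against 12.5% of tested genes, and 1 higher, against 41.5%. In every member the Tet2 KO and WT libraries did not overlap, with Tet2 KO lower in 7 and higher in 1. That holds for most genes here, since 48.7% of tested genes lay lower in both Tet2 KO libraries and 38.4% higher in both. The median log2 change of the 7 tested members was -1.69, against -0.12 over all tested genes. In RNA from bulk cells, fewer cells of a type and less RNA per cell cannot be told apart.

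**Figure D1:**
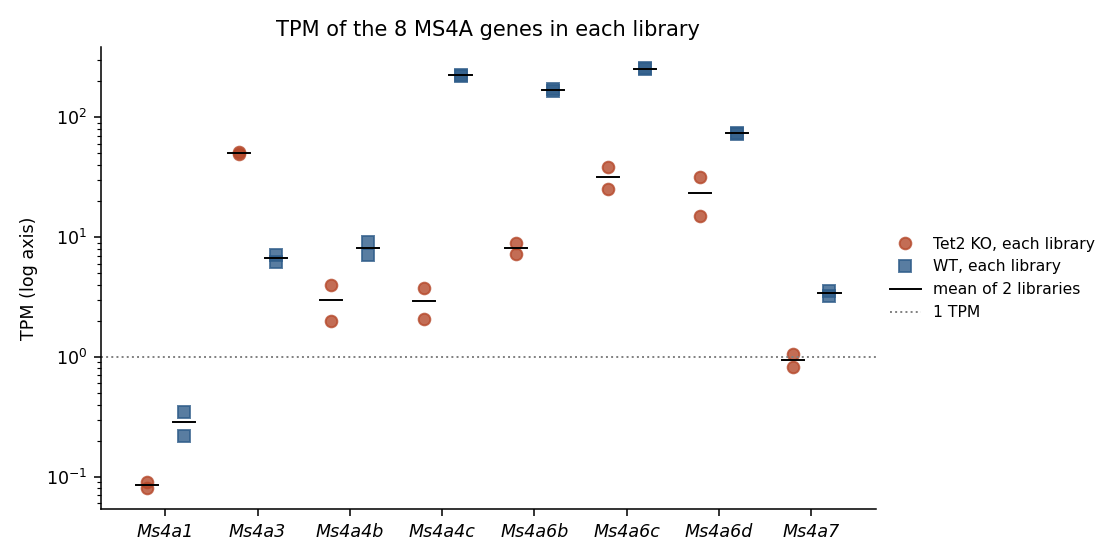
TPM of each of the 8 MS4A genes on a log axis, with circles for the 2 Tet2 KO libraries, squares for the 2 WT libraries and a short line at their mean. Circles and squares are apart for every gene, and the Tet2 KO libraries are higher only for Ms4a3; Ms4a1 lies below 1 TPM in all 4 libraries.

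The summed level of the 8 genes was 102 and 140 TPM in the Tet2 KO libraries, against 740 and 738 TPM in WT. Its make-up also differed. Ms4a3 supplied 48.7% and 36.6% of the sum in Tet2 KO cells and 0.843% and 0.963% in WT, whereas Ms4a4c supplied 2.03% and 2.68% in Tet2 KO cells and 30.5% and 30.0% in WT. Ms4a6c kept a large part of the sum in both groups, with 24.7% and 27.7% in Tet2 KO cells and 34.6% and 34.2% in WT. By mean TPM the order in Tet2 KO cells was Ms4a3, Ms4a6c, Ms4a6d, Ms4a6b, Ms4a4b, Ms4a4c, Ms4a7 and Ms4a1. Among these neighbours, the library values of Ms4a6c and Ms4a6d overlapped, as did those of Ms4a4b and Ms4a4c. In WT the order was Ms4a6c, Ms4a4c, Ms4a6b, Ms4a6d, Ms4a4b, Ms4a3, Ms4a7 and Ms4a1, and only the values of Ms4a4b and Ms4a3 came within overlapping ranges, at 9.18 and 7.06 TPM and 6.24 and 7.11 TPM.

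**Figure D2:**
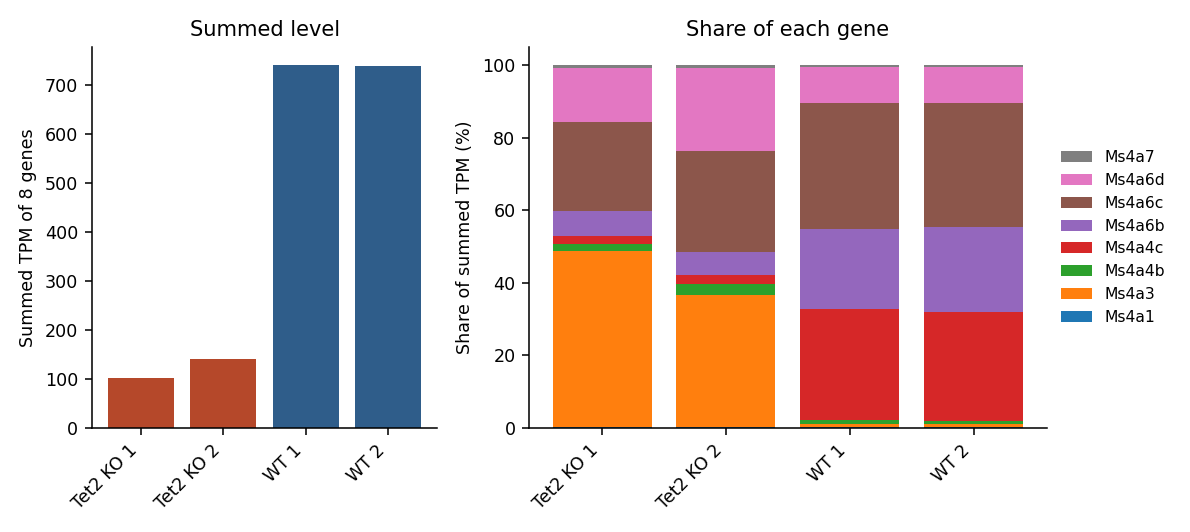
Left, summed TPM of the 8 MS4A genes in each library, with Tet2 KO libraries at 102 and 140 TPM and WT libraries at 740 and 738 TPM. Right, the share of that sum in percent supplied by each gene: Ms4a3 makes up 48.7% and 36.6% in the Tet2 KO libraries and under 1% in WT, where Ms4a6c, Ms4a4c and Ms4a6b make up most of it.

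The sequence before the annotated starts was read for 6 of the 8 members from RefSeq (build GRCm38.p6), as the 250 bases before the start. Those of 2 members are shown in lower case: Ms4a4c as the member with the largest fall and Ms4a3 as the member that rose. Neither stretch holds a base that GENCODE annotates as exon.
Ms4a4c (chr19:11407411-11407660, plus strand): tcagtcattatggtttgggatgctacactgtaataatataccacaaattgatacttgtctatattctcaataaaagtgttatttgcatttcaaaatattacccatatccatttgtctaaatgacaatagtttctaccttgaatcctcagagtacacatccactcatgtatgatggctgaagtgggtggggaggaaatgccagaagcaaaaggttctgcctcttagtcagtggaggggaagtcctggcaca
Ms4a3 (chr19:11640852-11641101, minus strand): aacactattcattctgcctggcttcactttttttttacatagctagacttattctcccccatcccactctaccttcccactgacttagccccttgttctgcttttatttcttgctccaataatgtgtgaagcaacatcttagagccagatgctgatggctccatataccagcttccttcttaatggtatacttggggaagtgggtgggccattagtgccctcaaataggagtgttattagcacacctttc

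For Ms4a4c the RefSeq start lies inside the gene that GENCODE annotates. Ms4a4c and Ms4a4b share a run of 20 bases near the start, ttctgcctcttagtcagtgg. CpG is the dinucleotide in which cytosine is methylated. Of these windows, those of Ms4a3, Ms4a4b, Ms4a4c and Ms4a6b hold 0, that of Ms4a6c holds 2 and those of Ms4a7 hold 6 and 1, where the median of all 32851 RefSeq windows of this length is 6.

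Ms4a4c showed the largest change among the tested members. It stood at 2.07 and 3.75 TPM in the Tet2 KO libraries, against 225.57 and 221.54 TPM in the WT libraries. Its mean was 2.91 ± 1.19 TPM in Tet2 KO cells (SD, n = 2) and 224 TPM in WT, so that WT was 76.8-fold higher. On the log2(TPM + 1) scale, which understates the change of low genes, it fell by 5.88 ± 0.30 (SE, limma adjusted p = 2.4e-09), and 0.201% of the tested genes had a more negative change. The Tet2 KO values stand for only about 12.5 and 23.6 estimated reads, against 1217.5 and 1090.8 in WT, so the size of the fold is imprecise. By mean level it was the 675th most abundant mouse row in WT and the 10001st in Tet2 KO cells.

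Ms4a4b, which modulates T cell activation in mice, lies next to Ms4a4c and is its closest relative in the family. Its level was 1.98 and 3.95 TPM in the Tet2 KO libraries, against 9.18 and 7.06 TPM in WT, where Ms4a4c was far more abundant. It fell by 1.25 ± 0.35 on the log2 scale (limma adjusted p = 0.00952). Scaled to the ERCC spike-ins the change was -0.77 (adjusted p = 0.117), and with quantile normalization adjusted p was 0.0756, so the call was lost under both, and the alternatives together gave adjusted p between 0.00119 and 0.297. The Tet2 KO libraries held similar amounts of both genes, and the difference between the changes of Ms4a4c and Ms4a4b was not tested. Their coding sequences, each 678 bases long in the longest annotated coding transcript, are 91.7% identical. Of all 50-base words in annotated coding transcripts, 8.19% of those of Ms4a4c and 4.19% of those of Ms4a4b also occur in a transcript of another gene, the other of the pair included, which leaves uncertain how reads were divided between them.

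Of the Ms4a6 genes, known from monocytes and macrophages, Ms4a6b and Ms4a6c fell too. Ms4a6b, which also associates with the receptor GITR in mouse T cells, stood at 7.19 and 8.93 TPM in the Tet2 KO libraries, against 165.32 and 173.48 TPM in WT. The mean was 8.06 ± 1.23 TPM in Tet2 KO cells (SD, n = 2), WT was 21.0-fold higher, and the gene fell by 4.24 ± 0.24 on the log2 scale (limma adjusted p = 7.54e-10). Ms4a6c, the most abundant member in WT, stood at 25.21 and 38.77 TPM in the Tet2 KO libraries, against 256.07 and 252.58 TPM in WT. It fell by 2.98 ± 0.25 (limma adjusted p = 3.56e-06), with WT 7.95-fold higher. Both genes were lower in each Tet2 KO library than in either WT library by far more than the Tet2 KO libraries differed from each other.

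Ms4a6d, expressed in macrophages, stood at 14.97 and 32.04 TPM in the Tet2 KO libraries, against 73.60 and 73.07 TPM in WT. The groups did not overlap, but the Tet2 KO libraries differed 2.14-fold from each other. Of 11112 genes with at least 1 TPM in both Tet2 KO libraries, 1.26% differed more between them, and the median gene differed 1.16-fold. The log2 change of -1.69 ± 0.58 did not pass (limma adjusted p = 0.121). It passed in 7 of the 13 alternatives, whose adjusted p lay between 6.04e-06 and 0.31. With both Tet2 KO libraries kept, adjusted p was 0.0129 with both WT libraries as separate samples, 0.0247 without trend and robust estimation, 0.0446 with quantile normalization and 0.0489 with median centring. Leaving out a Tet2 KO library, which also set both WT libraries as samples, gave -1.17 without replicate 1 and -2.22 without replicate 2. Such a fit no longer holds the spread between the Tet2 KO libraries. Ms4a6b shares 86.4% of aligned coding bases with Ms4a6c and 81.8% with Ms4a6d, and 5.89% of the 50-base words of Ms4a6b, 11.3% of those of Ms4a6c and 2.69% of those of Ms4a6d also occur in other genes. The summed TPM of the 3 genes, which depends less on how reads were split among them, was 47.4 and 79.7 in Tet2 KO cells, against 495 and 499 in WT.

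Ms4a7, a macrophage gene that in the mouse brain marks macrophages at its borders, was low throughout, at 0.83 and 1.05 TPM in the Tet2 KO libraries, against 3.57 and 3.25 TPM in WT. These values stand for about 11.7 and 15.4 estimated reads in the Tet2 KO libraries and 44.9 and 37.3 in WT. It fell by 1.19 ± 0.27 (limma adjusted p = 0.00184), and it owes its place among the tested genes to its WT level, since only 1 Tet2 KO library reached 1 TPM. None of its 50-base words occurs in another gene.

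Ms4a3, also called HTm4, marks granulocyte-monocyte progenitors and restrains the cell cycle in blood cells. It stood at 49.72 and 51.21 TPM in the Tet2 KO libraries, against 6.24 and 7.11 TPM in WT. The mean was 50.5 ± 1.05 TPM in Tet2 KO cells (SD, n = 2) and 6.68 TPM in WT, a 7.56-fold higher level. It rose by 2.75 ± 0.22 on the log2 scale (limma adjusted p = 4.86e-08), and 2.73% of tested genes had a more positive change. The Tet2 KO libraries differed only 1.03-fold for this gene, the smallest difference among the members by that ratio. Its 50-base words occur in no other gene. Unlike the calls of the 5 lower members, which were each lost without the filter on low values, its call held under all 13 alternatives, with adjusted p from 9.59e-10 to 0.0473. The value of 0.0473 was that without the filter. There its SE was 0.034, against 0.12 to 0.52 for the 5 lower members, so the contrast goes with the spread between the Tet2 KO libraries.

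Ms4a1, which encodes the B cell antigen CD20, the target of rituximab in human disease, was almost absent. Its level was 0.09 and 0.08 TPM in the Tet2 KO libraries, against 0.35 and 0.22 TPM in WT. These values rest on about 3.1 and 2.9 estimated reads in the Tet2 KO libraries and 10.9 and 6.3 in WT. No difference can be called at this depth.

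**Figure D3:**
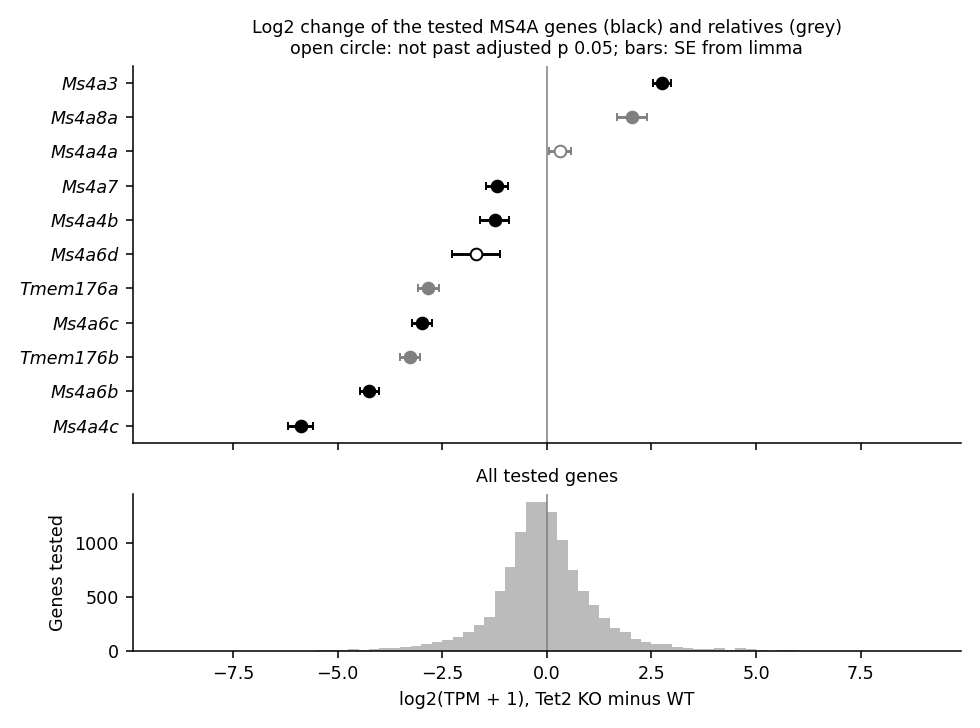
Top, change in log2(TPM + 1), Tet2 KO minus WT, with its SE, for the 7 tested members (black) and 4 tested relatives (grey); open circles did not pass an adjusted p of 0.05. Bottom, the same change for all 11919 tested genes, whose median is -0.12; Ms4a4c at -5.88 lies in the left tail and Ms4a3 at 2.75 on the right.

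Other genes of the family and the related Tmem176 pair were read from a list of 17 symbols, of which 11 were in the table and 4 could be tested. Of these 4, 2 fell, 1 rose and 1 did not pass, where 26.7% of all tested genes fell and 22.1% rose. Listed at 0 in every library were 4 of the 11 (Ms4a5, Ms4a10, Ms4a13 and Ms4a18). Tmem176b and Tmem176a, adjacent genes for MS4A-like proteins of dendritic cells and macrophages, fell. Tmem176b stood at 13.75 and 20.19 TPM in Tet2 KO cells, against 164.85 and 175.53 TPM in WT, and fell by 3.28 ± 0.24 (limma adjusted p = 1.87e-07). Tmem176a stood at 7.78 and 9.72 TPM in Tet2 KO cells, against 67.65 and 68.58 TPM in WT.

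Ms4a8a, known from mouse macrophages under alternative activation, was the gene of that list that rose. Its level was 8.24 and 4.33 TPM in Tet2 KO cells, against 0.58 and 0.85 TPM in WT, a log2 change of 2.03 ± 0.36 (limma adjusted p = 0.000491); it passed the filter through its Tet2 KO level alone. Ms4a4a, a surface protein of macrophages in humans, stood at 18.07 and 24.83 TPM in Tet2 KO cells, against 16.23 and 17.56 TPM in WT. Its log2 change was 0.31 ± 0.26 (limma adjusted p = 0.335), and it passed with ERCC scaling, at 0.88 (adjusted p = 0.0161). Ms4a2, the beta chain of the high-affinity IgE receptor of mast cells and basophils, was at 0.98 and 1.68 TPM in Tet2 KO cells, against 0.07 and 0 TPM in WT, and was not tested. The other chains of that receptor were at 0.27 and 0.35 TPM in Tet2 KO cells and listed at 0 in WT for Fcer1a, and at 508 and 357 TPM in Tet2 KO cells and 744 and 732 TPM in WT for Fcer1g. Fcer1g fell by 0.79 ± 0.27 (limma adjusted p = 0.0262), a call lost with ERCC scaling, quantile normalization, median centring and without trend and robust estimation.

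The 8 members lie in 1 cluster on chromosome 19 of the mm10 build, between 11249675 and 11640851, a span of 391.2 kb in the GENCODE annotation of that build. From low to high coordinates they are Ms4a1 and Ms4a7 on the minus strand, Ms4a4c, Ms4a4b, Ms4a6c and Ms4a6b on the plus strand, and Ms4a6d and Ms4a3 on the minus strand. Ms4a4a stands between Ms4a7 and Ms4a4c, and Ms4a2 between Ms4a6d and Ms4a3. Ms4a4c spans 11404770 to 11427246, Ms4a6c 11469366 to 11482192, Ms4a6b 11516512 to 11531256 and Ms4a3 11629496 to 11640851, so that the member that rose lies at the end of the cluster. Ms4a8a, the other MS4A gene that rose, lies on the opposite, low-coordinate side of the 8 members, from 11067471 to 11081102. Within 500 kb of the cluster the table holds 34 genes whose symbol does not begin with Ms4a, of which 13 were tested. Of these 13, 7 fell, where 26.7% of all tested genes did, and 3 rose, where 22.1% did. On the low-coordinate side the peptide and histidine transporter gene Slc15a3 stood at 71.1 and 58.3 TPM in Tet2 KO cells, against 387 and 388 TPM in WT, and fell by 2.57 ± 0.21 (limma adjusted p = 5.87e-08). Others that fell on that side were Tmem109 (-2.76), AW112010 (-2.43), Ccdc86 (-2.38), Tmem132a (-2.14) and Prpf19 (-0.81, lost with ERCC scaling). Gm8369, which lies inside the cluster between Ms4a6c and Ms4a6b, also fell (-1.07), and it passed the filter through its WT level alone. On the far side of Ms4a3, Oosp1 was at 1.40 and 2.25 TPM in Tet2 KO cells, against 0.48 and 0 TPM in WT, passed the filter through its Tet2 KO level and rose by 1.17, as did Patl1 (0.79) and Osbp (0.65, lost without trend and robust estimation). Cd6, Mrpl16 and Stx3 did not pass.

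**Figure D4:**
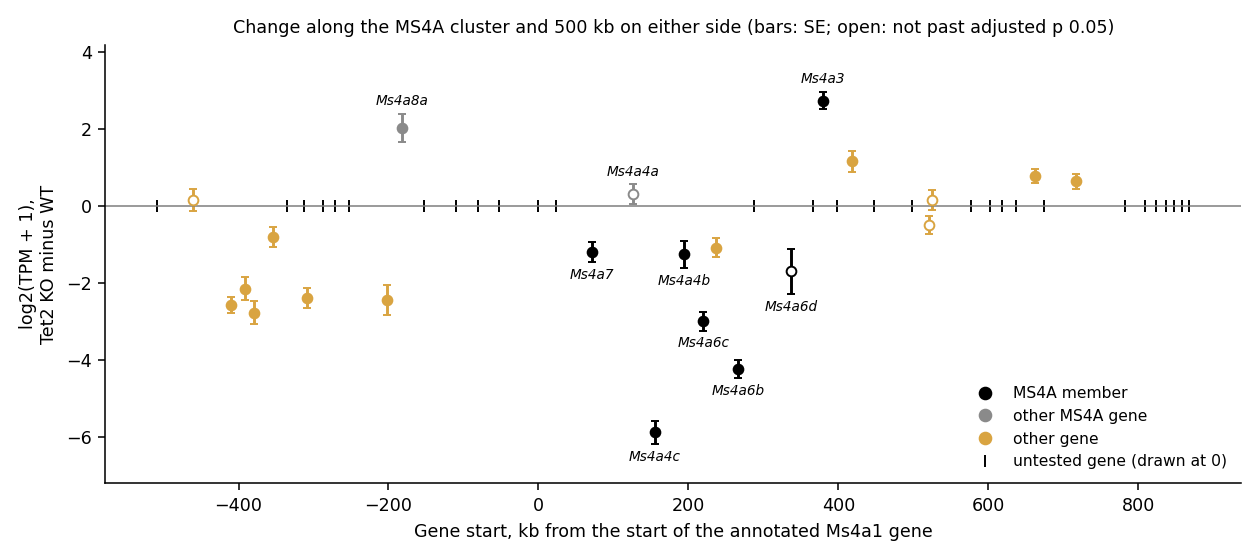
Change in log2(TPM + 1), Tet2 KO minus WT, with its SE, for tested genes along the MS4A cluster and 500 kb on either side, by distance in kb from the low-coordinate end of Ms4a1; ticks at 0 are untested genes and open circles did not pass. Ms4a4c (-5.88), Ms4a6b (-4.24) and Ms4a6c (-2.98) lie in the middle of the cluster, and Ms4a3 (2.75) at its high-coordinate end. Ms4a8a (2.03), which also rose, lies on the low-coordinate side of the 8 members.

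The member levels varied between the Tet2 KO libraries. In 7 of 8 members 1 library, replicate 2, was the higher, as it was for 65.2% of all tested genes. The ratio of replicate 2 to replicate 1 was 2.14 for Ms4a6d, 1.995 for Ms4a4b, 1.81 for Ms4a4c, 1.54 for Ms4a6c, 1.24 for Ms4a6b, 1.27 for Ms4a7 and 1.03 for Ms4a3. Between the WT libraries the same tested members differed by 1.30-fold at most, for Ms4a4b.

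Marker lists for the cell types in which these genes are known were read beside the members. The lists, too, were chosen with earlier results of these data known, so their counts are a description. For comparison with the counts of each list, 26.7% of all tested genes were called lower and 22.1% higher. Interferon-induced genes stood at summed levels of 272 and 330 TPM in Tet2 KO cells, against 13767 and 13813 TPM in WT, with 29 of 29 tested genes lower and a median log2 change of -5.31. Ifit3, an antiviral effector, and Mx1, an antiviral GTPase, were among them. Macrophage markers summed to 448 and 455 TPM in Tet2 KO cells, against 1414 and 1405 TPM in WT. Of 9 tested macrophage markers 6 fell and 1 rose (median -1.22), including the complement gene C1qb at 42.7 and 46.5 TPM in Tet2 KO cells, against 367 and 380 TPM in WT, while Mertk, a receptor for apoptotic cells, rose. Of 12 monocyte genes 7 fell and 2 rose (median -2.04). Cx3cr1, a receptor of patrolling monocytes, stood at 2.94 and 1.57 TPM in Tet2 KO cells, against 311 and 310 TPM in WT. F13a1, which encodes a coagulation factor subunit, stood at 252 and 370 TPM in Tet2 KO cells, against 53.1 and 56.6 TPM in WT. Dendritic cell markers fell in 6 of 7 tested cases (median -1.25), with sums of 65.8 and 49.1 TPM in Tet2 KO cells and 435 and 440 TPM in WT. However, 1 interferon-induced gene and 1 dendritic cell marker, Siglech, passed the filter through their WT level alone, which fixed their direction. The part of these cell types in the levels of the Ms4a4, Ms4a6 and Ms4a7 genes was not tested.

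Beside the rise of Ms4a3, all 10 of the other granulocyte-monocyte progenitor genes on the list rose (median 2.94), with sums of 1525 and 1536 TPM in Tet2 KO cells, against 214 and 220 TPM in WT. The progenitor marker Cd34, which was kept in another list, went the other way. It stood at 14.7 and 15.8 TPM in Tet2 KO cells, against 60.6 and 60.7 TPM in WT, a log2 change of -1.92. Mpo, which encodes myeloperoxidase, stood at 203 and 253 TPM in Tet2 KO cells, against 11.8 and 10.8 TPM in WT. Neutrophil genes rose in 12 of 13 cases (median 5.83), with sums of 107594 and 86204 TPM in Tet2 KO cells, against 1679 and 1718 TPM in WT. Their part in the level of Ms4a3 was not tested. Mast cell and basophil markers, the cell types of Ms4a2, summed to 59.4 and 67.0 TPM in Tet2 KO cells, against 3.41 and 3.40 TPM in WT. All 7 tested were called higher, but 6 of them were under 1 TPM in both WT libraries and passed the filter through their Tet2 KO level alone, which fixed their direction. The same holds for 2 of the 10 progenitor genes and 1 of the 13 neutrophil genes.

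Lymphoid markers stand beside Ms4a1 and Ms4a4b, the members known from B and T cells. The 10 B cell markers summed to 7.02 and 4.79 TPM in Tet2 KO cells, against 9.93 and 8.92 TPM in WT; Pax5, a B cell transcription factor, was listed at 0 in both Tet2 KO libraries, against 0.09 and 0.10 TPM in WT. Of the 2 tested, Cd79a rose, having passed the filter through its Tet2 KO level alone and with a call lost under quantile normalization, and Cd79b fell. The T cell receptor component Cd3e was at 0.70 and 2.01 TPM in Tet2 KO cells, against 1.01 and 1.03 TPM in WT, and did not pass. The 12 T cell markers summed to 29.6 and 39.3 TPM in Tet2 KO cells, against 224 and 230 TPM in WT, most of it Il7r, at 20.9 and 25.8 TPM in Tet2 KO cells, against 210 and 216 TPM in WT. Of 7 tested, 3 fell and 1 rose (median -0.02). Of these, Cd28 and Cd5 lost their call with ERCC scaling, and Cd28 (through WT) and Thy1 (through Tet2 KO) passed the filter through the higher group alone. NK cell markers summed to 0.97 and 2.22 TPM in Tet2 KO cells, against 16.2 and 14.6 TPM in WT, and Ncr1 was listed at 0 in every library. Both tested NK genes, Klrk1 and Klrd1, were called lower, but they passed the filter through their WT level alone, which fixed the direction. Their part in the levels of Ms4a1 and Ms4a4b was not tested.

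The genes with the pattern nearest to each tested member were found by the Euclidean distance between log2(TPM + 1) values, centred per gene, over the 4 libraries. For Ms4a3 they were Ppp1r42, Dab2ip and Gata2, at distances of 0.055 to 0.088. For Ms4a4c they were Tnfsf8, Gbp3 and Slfn5, at 0.17 to 0.31, and for Ms4a6b Kctd14, Plat and Herc6, at 0.11 to 0.14. Ms4a6c was nearest to Ckb, Shmt2 and Clic4, at 0.035 to 0.045, and Ms4a6d to Crip2, 2310043L19Rik and Tma16, at 0.082 to 0.17. Ms4a4b was nearest to Chchd10, Mrpl38 and Mir6240, at 0.10 to 0.14, and Ms4a7 to Apod, Apool and Il3ra, at 0.023 to 0.028. With 4 libraries in 2 groups such a distance mostly compares the size of the change, and it is given as a description.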

How the data were processed

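RNA-seq was measured in 4 libraries, 2 Tet2 KO and 2 WT, grouped by their titles. The values are TPM as deposited by the authors; STAR, RSEM and mm10 are named per the submitters' processing notes, and versions and annotation are not given in the sources used here. Kit chemistry is stranded per the labels' protocols. The table holds 24589 rows, of which 92 are ERCC spike-ins, left out of all tests. The 8 members and the 13 gene lists were chosen with earlier results of these data known.

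Depth was estimated from low values of genes with a single transcript of 600 to 2500 nt: the product of TPM and the length less 200 nt falls on multiples of 1 read, with 72.5% to 75.5% of low values within 0.2 of a whole number. The depths are approximate, TPM states none, and no interval from counts is given. Both WT libraries were averaged (n = 1).

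Limma 3.58.1 (R 4.3.3) was fitted to log2(TPM + 1) with trend and robust estimation over 11919 genes with at least 1 TPM in at least 2 libraries, on 2 Tet2 KO samples and 1 WT sample (1 residual degree of freedom, all spread from Tet2 KO; the WT mean is taken to vary alike). P-values are two-sided and Benjamini-Hochberg adjusted over these genes; other errors are SDs. The fit was also run on simulated data in which all 4 libraries had the same spread. The libraries here differ in spread, so that run does not show how the fit behaves on them. Coordinates come from GENCODE M21, on the same build, which held 23720 of the 24497 mouse symbols. Coding sequences were aligned with Biopython 1.88. Named genes are the members, listed relatives, up to 3 genes per list and direction with the smallest p, and tested genes within 500 kb. The 3 nearest patterns per member and Tet2 were also named. Other names (Ptprc, Spi1, Pax5, Cd3e, Fcer1a and Ncr1) were picked from the lists, and Xist from outside them, after their values were seen. The alternatives were another scaling, pseudocount, filter, variance model or set of libraries. Values of a further marker gene, and a further sequence, are not reported here.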

Additional observations from a re-analysis of the deposited data

How the results depend on the processing

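Every tested member kept its direction in all alternatives in which it was tested, and the single higher member, Ms4a3, stayed called in all 13. Lower members numbered 0 without the filter on low values, where 123 genes were higher and 295 lower in all (the cause was not tested), and 4 to 6 otherwise. With ERCC scaling, under which the median log2 change of all genes was 0.43, against -0.12, 4942 genes were higher and 1492 lower (76.8% of calls higher, against 45.2%). Leaving out 1 library gave 2651 to 4321 genes higher and 3192 to 5674 lower; without Tet2 KO replicate 1 or 2 both WT libraries stood as samples, and the lone Tet2 KO library is assumed to vary like them. With both WT libraries as samples 3520 genes were higher and 4517 lower, and a replicate block added to that fit gave 3495 and 4461, with 6 members lower (Ms4a6d at adjusted p = 0.0149). The numbers are not shown to pair libraries (correlation of deviations -0.011 over 11919 genes). Of 76 other named genes, reversals were those of Cd6 (-0.15 to 0.49 when 1 library was left out) and Mrpl16 (0.076 with ERCC scaling), neither called there; 87 results of 973 lost their call, 66 of them without the filter. Few reads limit Ms4a1, Ms4a2 and Ms4a7, and the Tet2 KO levels of Ms4a4b and Ms4a4c.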
